A study of Mus musculus with 2084 samples.

Results

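Cytosolic ribosomal protein genes encode the protein components of the large (60S) and small (40S) subunits of the ribosome that translates nuclear mRNAs. They were taken by name from the deposited RNA count matrix, as the protein-coding mouse genes whose symbol starts with Rpl or Rps, together with Rack1 and Fau, without pseudogenes, the Rps6k kinases and other genes that only share the prefix. This gave 85 genes of 35606 gene identifiers, 50 of the large and 35 of the small subunit, and no measured value entered the choice. A cell had a median of 75 of the 85 members with at least 1 count, with a range of 11 to 85. Rpl41 was detected in 98.0% of cells and Rps14 in 97.7%, whereas Rpl3l, the muscle paralog of Rpl3, was detected in 2.63%, Rps27rt in 34.3% and Rpl22l1 in 42.6%.

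Ribosomal protein mRNAs are known for rising and falling together. Their 5′ ends carry a terminal oligopyrimidine tract, through which mTOR signalling and the RNA-binding protein LARP1 set how much of them is translated and kept. In the adult brain, neural stem cells are known to keep protein synthesis low while quiescent and to raise it when they activate, and the ribosomal protein genes are a usual marker of that step.

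Single cells were sorted from the ventricular-subventricular zone (vSVZ, the stem cell niche beside the lateral ventricle), striatum, cortex and olfactory bulb of mice, and their RNA was read by Smart-seq3, the transcriptome side of a combined RNA and epigenome assay. Sorting used antibodies that included GLAST (astrocytes and stem cells), O4 (oligodendrocytes), PSA-NCAM (neuroblasts) and Prominin1. Biological replicates carry letters, and each letter stands for 1 or more mice. The submitters' cell types were used as given: the quiescent neural stem cell states qNSC1 and qNSC2, active stem cells (aNSC), transit-amplifying progenitors (TAP), neuroblasts, oligodendrocytes and astrocytes of the vSVZ, striatum or cortex. In the stem cell field qNSC1 stands for dormant cells and qNSC2 for cells primed to activate. The types may have been set from these same transcriptomes, so that p-values between types are descriptive.

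The mice after ischemia were TiCY mice at 2 d (letter pI) and at 21 d (pH), and TiCY-IFN(A/G)R KO mice at 2 d (pJ). IFN(A/G)R KO is called KO below; the labels name the interferon receptors and no further allele. TiCY mice carry a tamoxifen-induced Cre that acts in Tlx (Nr2e1)-expressing neural stem cells and turns on eYFP in them and their progeny. Per the labels' protocols they were injected at 2 months of age, both carotid arteries were occluded 2 weeks later, and the mice were killed 48 h or 3 weeks after that. Naive TiCY mice (pM) and naive IFN(A/G)R KO mice (pJ, without TiCY in the label) had no ischemia. WT mice (pA to pF) had neither tamoxifen nor ischemia, and naive WT (TCF-Lef reporter) mice (pL) gave cortical and striatal astrocytes. The TiCY cells after ischemia are mostly labelled only as astrocytes and stem cell lineage cells, so that whole GLAST sorts, and not types, were compared there.

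In all, 1981 labelled cells were used, with 3771 to 1842234 counts per cell and a median of 160621. Counts of cells of 1 type and letter were summed, and a sum needed at least 3 cells; qNSC2 of pA and pB and aNSC and TAP of pE rest on 3 cells each. Marker lists were read in the WT sums as a description. They are no independent check of the labels, since the types may rest on these same transcriptomes. The quiescent NSC and astrocyte markers reached 30560 to 67140 counts per 1e6 counts (CPM) in qNSC1 and 22390 to 46340 CPM in qNSC2. The activated NSC and TAP markers reached 6302 to 8626 CPM in aNSC and 10370 to 14960 CPM in TAP. The neuroblast markers reached 1963 to 8575 CPM in neuroblasts and the oligodendrocyte markers 65490 to 91610 CPM in oligodendrocytes. The letters fell into sets by depth and by the level of the ribosomal protein genes: pA, pB and pE had medians of 648839 to 1000343 counts per cell and low shares of ribosomal protein counts, while pC and pD had medians of 153382 and 120498 counts per cell and high shares. How much of the level between letters comes from library preparation was not tested, and levels are therefore compared within letters wherever a letter holds both groups. Exact (Clopper-Pearson) 95% intervals of a share were at most 0.0620 percentage points or 2.19% of the share to either side; they cover counting error only, since reads are not independent molecules. Of the 85 members, 36 overlap another annotated gene on the same strand and some have near-identical processed copies, so single-member values can hold reads of another gene.

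Start regions of the members shared sequence features that the name rule did not use. RefSeq promoters (GRCm38.p6, 250 bases before to 50 after the start) were on hand for 65 of the 85 members and for 27025 genes in all. The letters CGGAAG, the core that ETS family factors recognise, were found on either strand in 64.6% of the members' windows, against 18.8% of all windows. The pyrimidine run CTTTCC was in 50.8% of members and 29.3% of all, the GC box GGGCGG in 61.5% and 38.2%, TCTCGCGA in 16.9% and 1.13%, and the TATA box TATAAA in 10.8% and 15.7%. These motifs were counted on both strands, a window can hold several, and a match of letters is not a measured binding site. Printed first are Rpsa and Rpl41, which follow the stem cell activation described below, and Rpl22l1, a paralog that follows it weakly; each stretch runs from 100 bases before to 30 after the start, and capitals mark CGGAAG on either strand.
Rpsa, chr9:120127666-120127795, plus strand: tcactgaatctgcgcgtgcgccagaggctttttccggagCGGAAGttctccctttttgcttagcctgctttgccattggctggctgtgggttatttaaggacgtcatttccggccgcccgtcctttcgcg
Rpl41, chr10:128549139-128549268, minus strand: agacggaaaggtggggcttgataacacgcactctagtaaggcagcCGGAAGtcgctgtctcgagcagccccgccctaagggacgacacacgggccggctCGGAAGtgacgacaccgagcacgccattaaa
Rpl22l1, chr3:28805408-28805537, plus strand: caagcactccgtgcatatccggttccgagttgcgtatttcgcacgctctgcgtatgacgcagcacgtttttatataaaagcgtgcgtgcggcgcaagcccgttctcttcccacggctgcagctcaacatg
Rpsa holds the motif once in this stretch, Rpl41 holds it at 2 places and Rpl22l1 at 0.

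Rps27 and its retrogene copy Rps27rt are printed because the copy stood apart from the other members in several comparisons below. Capitals mark their longest shared run.
Rps27, chr3:90213619-90213748, minus strand: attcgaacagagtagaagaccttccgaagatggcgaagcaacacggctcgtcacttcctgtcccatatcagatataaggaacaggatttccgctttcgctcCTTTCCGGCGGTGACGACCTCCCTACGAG
Rps27rt, chr9:114982710-114982839, minus strand: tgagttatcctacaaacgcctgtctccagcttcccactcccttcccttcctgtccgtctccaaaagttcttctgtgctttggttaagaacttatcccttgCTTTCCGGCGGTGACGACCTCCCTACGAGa
Within these stretches the shared run is 29 bases long and sits at the transcribed end of both, while the bases before it differ. Reads from the start of these 2 transcripts therefore look alike. In Rps27 the run reaches the last printed base, and shared sequence past the stretches was not measured.

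Along the WT stem cell lineage, ribosomal protein genes were lowest in qNSC1, higher in qNSC2, and highest in aNSC and TAP. In qNSC1 they held 0.298% of all counts of letter pA, 0.359% of pB, 1.37% of pC, 3.16% of pD and 0.431% of pE. In qNSC2 they held 0.525% in pA, 0.614% in pB, 4.93% in pD and 1.08% in pE. Every letter with both types was higher in qNSC2, although the ranges over letters overlap. In pD the activated NSC and TAP markers were also highest in both, at 2597 CPM in qNSC2 and 2210 CPM in qNSC1, against 277 to 619 and 409 to 490 CPM in the other letters, and their part in the level of pD was not tested. In aNSC the share reached 8.601% in pC, 12.8% in pD and 3.46% in pE, and in TAP 7.46% in pC, 12.2% in pD and 3.65% in pE. Neuroblasts had 1.20% in pA, 1.78% in pB, 6.74% in pC and 9.86% in pD. Olfactory bulb neuroblasts and neurons (pF) had 6.82%. Striatal astrocytes of WT mice (pE) had 0.703%, above the 0.431% of qNSC1 in the same letter.

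**Figure D1:**
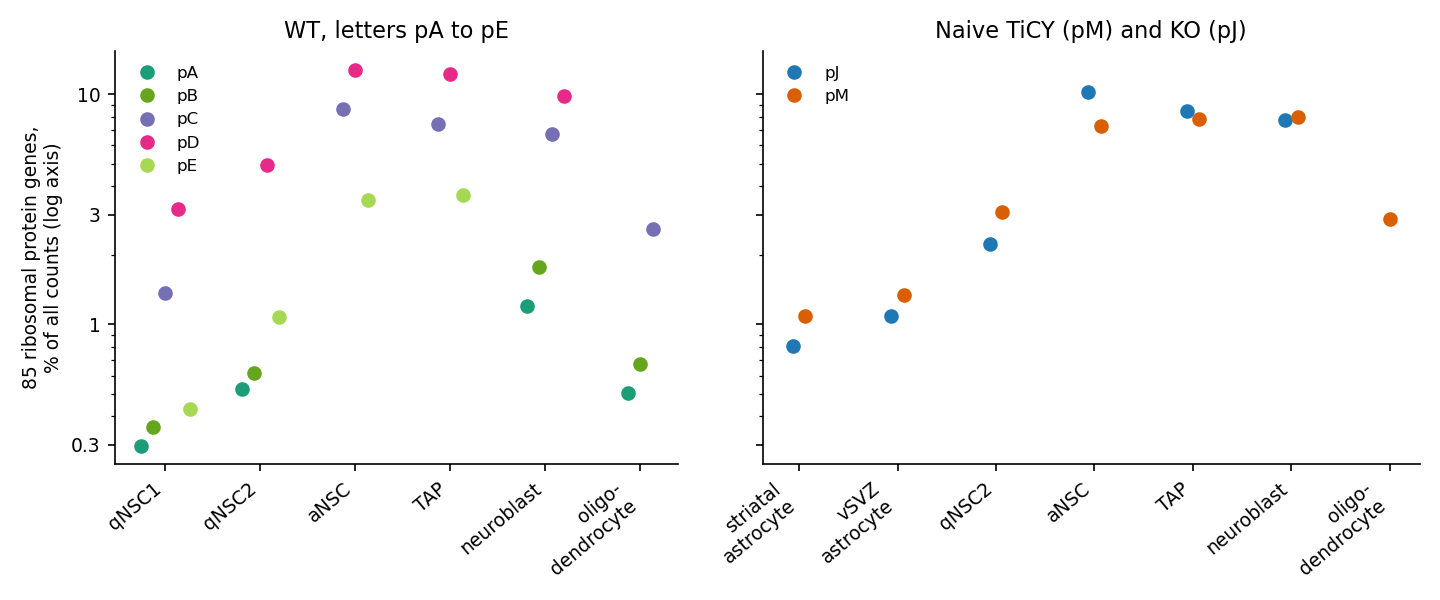
Share of all counts held by the 85 ribosomal protein genes (log axis, percent) in summed cells of each type; each point is 1 letter. In every WT letter that holds them, qNSC1 is the lowest type and aNSC or TAP the highest, from 0.298% in qNSC1 of pA to 12.8% in aNSC of pD; naive TiCY and KO letters run from 0.807% in striatal astrocytes to 10.3% in aNSC.

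At the first step the share in qNSC2 was 1.76 times that in qNSC1 in pA, 1.71 times in pB, 1.56 times in pD and 2.495 times in pE. Of 84 members over 5 CPM on average, 42 were higher in qNSC2 in all 4 letters and 0 were lower in all 4, against 9.39% of all genes higher and 11.9% lower. Rpsa, a 40S protein that also serves as a laminin receptor precursor, had 322 CPM in qNSC2 of pA, 312.7 of pB, 1378 of pD and 296.1 of pE, against 64.78, 87.16, 627.8 and 72.56 CPM in qNSC1 of the same letters and 136.4 in pC. Each qNSC2 value is above that of its own letter. With edgeR's quasi-likelihood test and Benjamini-Hochberg adjustment over all genes, 0 of 84 members passed 0.05 without the letter in the model (2 at an unadjusted p under 0.05; DESeq2 also called 0), where 0.0805% of all genes passed. Since letters pair the samples, a blocked fit, with a term for each letter, is given beside it: it called 2 members higher, Rpsa (log2 fold change 1.63, SE 0.25, adjusted p 0.00703) and Rpl27a (1.75, SE 0.35, adjusted p 0.0393), where 0.107% of all genes were called higher. Shares of all genes that passed, here and below, are at the adjusted cutoff in edgeR. Member counts at an unadjusted p under 0.05 or from DESeq2 have no such share beside them and are not read as an excess. The members' median log2 fold change was 0.62 with the block and 0.46 without it, beside -0.25 and -0.11 over all genes. Without pD the unblocked median was -0.03, but there qNSC1 has a pC sum and qNSC2 has none.

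At the step into activity the share was higher again. aNSC held 2.60 times the share of qNSC2 in pD and 3.22 times in pE, and 83 of 84 members were higher in both letters, against 30.6% of all genes. Rplp0, the base of the ribosomal stalk that recruits elongation factors, had 998.5 CPM in aNSC of pC, 1551 of pD and 935.1 of pE, against 84.76 CPM in qNSC2 of pA, 51 of pB, 413.9 of pD and 190 of pE. The aNSC and qNSC2 values of Rplp0 do not overlap. Without the letter in the model, 0 of 84 members passed (37 at an unadjusted p under 0.05; DESeq2 called 15), where 0.194% of all genes passed. With the letter as a block, 50 members rose, 33 of the 60S and 17 of the 40S subunit, where 1.17% of all genes were called higher. Among them were Rplp0 (log2 fold change 2.36, SE 0.37), Rpl13 (1.96, SE 0.31), Rpl37a (2.49, SE 0.38), Rps23 (1.81, SE 0.28) and Rpl41 (1.58, SE 0.24), each with an adjusted p of 0.00457 in edgeR's blocked fit. The members' median was 1.61 in that fit and that of all genes 0.00. In pC and pD alone, unblocked, it was 0.97 here and 1.02 from qNSC1 to qNSC2, and the 2 steps were not tested against each other. There qNSC2 is pD alone, since pC held 1 qNSC2 cell, while aNSC and qNSC1 come from both letters. Both medians therefore set unequal letters against each other. Rps27rt (-0.87) and Rpl22l1 (0.29) were the lowest of the 84 in that fit, and neither passed.

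Between TAP and qNSC1, the ends of this rise, the test called members even without the block: 25 of 84 rose, 13 of the 60S and 12 of the 40S subunit, and 0 fell, where 3.97% of all genes were called higher. Rps4x, the X-linked 40S protein, had 922.4 CPM in TAP of pC, 715.3 of pD and 887.3 of pE, against 37.42 CPM in qNSC1 of pA, 43.05 of pB, 84.33 of pC, 157.7 of pD and 86.04 of pE. The lowest TAP value is above the highest qNSC1 value. Its log2 fold change was 3.24 (SE 0.65, edgeR adjusted p 0.00409), and Rpl10 (3.01), Rpl4 (2.74), Rack1 (2.82), a scaffold protein at the head of the 40S subunit, and Rpl7 (2.66) followed. With the letter as a block, 78 of 84 rose, led by Rpsa (3.09, SE 0.28, adjusted p 3.74e-06), where 6.67% of all genes were called higher. The count without the block rests on single letters: it was 1 without pE, 4 without pC, 5 without pB, 14 without pA and 46 without pD. Rps27rt had -0.16 in the unblocked fit and was the only member below 0, and Rpl5 (1.40), Rpl7l1 (1.48) and Rpl22l1 (1.86) were the next lowest; none of these 4 passed.

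TAP and aNSC were close. TAP held 0.867 times the share of aNSC in pC, 0.952 times in pD and 1.06 times in pE, so that the letters lie on both sides of 1. Of 84 members, 0 passed (0 at an unadjusted p under 0.05; DESeq2 and the blocked fit called 0), and 0 of all genes passed, a share of 0%; the members' median log2 fold change was 0.02. Neuroblasts were a little lower than TAP, at 0.904 times the share in pC and 0.809 times in pD. Here 0 of 84 members passed (1 at an unadjusted p under 0.05; DESeq2 and the blocked fit called 0), where 0.0939% of all genes passed, with a median of -0.73 unblocked and -0.36 with the block. In the blocked fit Rps27l, a p53-inducible paralog of Rps27 (-1.41), Rpl22l1 (-1.35) and Rpl7l1 (-1.01) had the lowest values, and none passed.

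**Figure D2:**
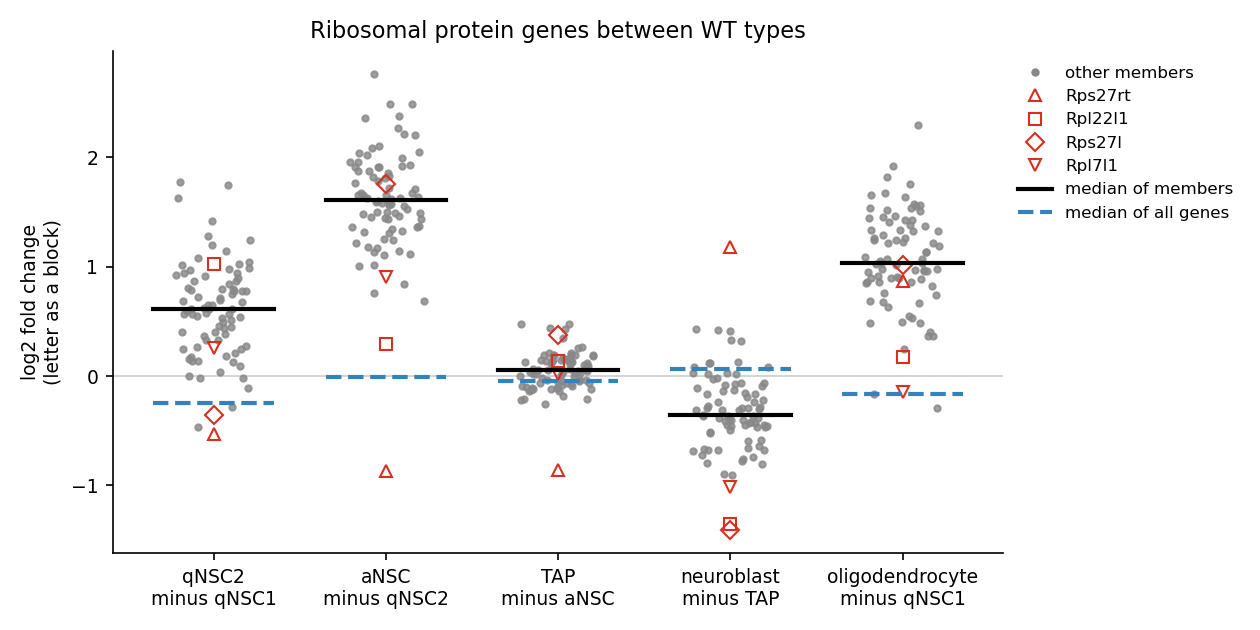
log2 fold change of each of the 84 tested ribosomal protein genes between WT types (edgeR with the letter as a block); black lines are the members' medians and dashed lines the medians of all genes. The members' median is 0.62 from qNSC1 to qNSC2, 1.61 from qNSC2 to aNSC, near 0 from aNSC to TAP, -0.36 from TAP to neuroblasts and 1.03 in oligodendrocytes over qNSC1; Rps27rt and Rpl22l1 lie apart from the rest in several comparisons.

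Oligodendrocytes lay above qNSC1 in every letter that holds both. Their share was 0.506% in pA, 0.672% in pB and 2.61% in pC, against 0.298%, 0.359% and 1.37% in qNSC1 of the same letters, which gives ratios of 1.70, 1.87 and 1.91. Rps6, whose phosphorylation is the usual readout of mTOR activity, led the unblocked fit at a log2 fold change of 1.54. Without the block 0 of 84 members passed (1 at an unadjusted p under 0.05; DESeq2 called 0), where 11% of all genes passed, and the members' median was 0.29; it turned to -0.72 without pC. With the block 46 rose, where 6.58% of all genes were called higher, with a median of 1.03; Rpsa (1.82, SE 0.27, adjusted p 1.38e-04), Rps3 (1.45), Fau (1.65) and Rps6 (2.29) were among them. Oligodendrocytes are in pA to pC and qNSC1 in pA to pE, so the unblocked fit sets unequal letters against each other.

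The sorts were compared as well, with gates in place of types. In the NB sort (PSA-NCAM) the share was 1.21% in pA, 1.72% in pB and 6.53% in pC, against 0.374%, 0.5682% and 2.49% in the NSC sort. Each letter was higher in the NB sort, by 3.24-fold, 3.02-fold and 2.62-fold. The ASTRO sort held 0.463%, 1.18% and 6.92%, and its activated NSC and TAP markers summed to 1876, 5299 and 9372 CPM. Without the block 0 of 84 members passed (5 at an unadjusted p under 0.05; DESeq2 called 1), where 11.8% of all genes passed; with it 58 rose, where 7.95% were called higher, among them Rpl34 (2.19), Rps26 (2.30), Rps27 (2.13) and Rps19 (2.16). The OLIGO sort over the NSC sort gave 0 of 84 (0 at an unadjusted p under 0.05; DESeq2 and the blocked fit called 0), where 6.1% of all genes passed, with a median of 0.34 unblocked and 0.46 with the block, so the calls of the blocked fit between oligodendrocytes and qNSC1 were not seen between these gates. The NSC sort also held oligodendrocytes: summed oligodendrocyte markers reached 10330 CPM in pA and 43750 CPM in pB, against 189 CPM in pC, and the part of this mixture in the comparison was not tested.

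Other genes of translation and growth were set beside the members, with no test between the lists. From qNSC1 to TAP (edgeR, unblocked), 12 of 20 translation factors and other genes with oligopyrimidine tracts rose and 0 fell, with a median log2 fold change of 2.12 beside the members' 2.73; Hnrnpa1 (4.06), Nap1l1 (3.21) and Eef1a1, the main elongation factor (2.37), led. Over all genes 3.97% were called higher in that comparison. Of 30 ribosome biogenesis genes, which build ribosomes in the nucleolus, 5 rose and 0 fell, with a median of 1.60; Npm1 (2.94) and Ncl (2.73), the nucleolar chaperones, and Nop56 (2.31) led. Of 78 mitochondrial ribosomal protein genes 0 passed, with a median of 0.73. Of 26 growth control genes of the mTOR and Myc pathways 3 rose and 0 fell, Mycn (5.98), Mycl (7) and Atf4 (1.87), while the list's median was 0.02; all genes together had -0.30. Over the 22 WT sums, Eef1b2, an elongation factor subunit, had the pattern most like the summed members (Pearson r 0.977 on log2 CPM, of 8442 genes), and Snrpf (0.966), Serbp1 (0.963) and Erh (0.949) were among the next. These sums share letters and depth sets; with each letter centred, Eef1b2 again came first (0.961), and Set, Ncl, Eef1a1 and Hnrnpa1 followed.

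Members kept to the module unequally. With letters centred, the correlation of a member with the summed members over the same 22 sums had a median of 0.935. Rpl3l (-0.34) and Rps27rt (-0.31) went the other way, and Rps27l (0.49), Rpl5 (0.50), Rpl7l1 (0.53) and Rpl22l1 (0.55) followed weakly. Apart from Rpl5, which binds the 5S rRNA, these are paralogs or copies of another member. Rpl22l1 had 109.8 CPM in aNSC of pC, 92.96 of pD and 135.3 of pE, against 29.57 CPM in qNSC2 of pA, 75.66 of pB, 86.11 of pD and 121.7 of pE, and these overlap. Lengths were those of all annotated exons of a gene, 1989 bases for Rpl22l1 and 2911 for Rpl22. Values per length therefore depend on the annotation. Per length, Rpl22l1 made up 78.1% of the Rpl22 and Rpl22l1 pair in qNSC1 of pA, 66.3% in pB, 47.5% in pC, 28.4% in pD and 50.1% in pE. In neuroblasts it made up 8.3% in pA, 35.1% in pB, 6.9% in pC and 15.2% in pD. Each neuroblast value is below that of qNSC1 in the same letter. Levels per length differed widely among members too: in TAP, Rpl41 (a median of 2148 CPM per kilobase over 3 letters) and Rplp1 (1933) ranked highest, and Rps27rt (12.9) and Rpl3l (0) lowest, with 39.95 for Rpl12. The annotated exons sum to 499 bases for Rplp1 and 3598 for Rpl12, and the part of these lengths in the ranks was not tested.

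Naive TiCY (pM) and KO (pJ) mice, with vSVZ astrocytes labelled apart from qNSC2, also had higher shares in aNSC, TAP and neuroblasts than in qNSC2 and astrocytes. The share was 1.09% and 0.807% in striatal astrocytes of pM and pJ, 1.34% and 1.09% in vSVZ astrocytes, 3.09% and 2.24% in qNSC2, 7.31% and 10.3% in aNSC, 7.79% and 8.50% in TAP and 7.99% and 7.69% in neuroblasts, with pM first in each pair. In pM neuroblasts were highest and in pJ aNSC. Oligodendrocytes of pM had 2.88%. Between qNSC2 and vSVZ astrocytes 80 of 85 members were higher in qNSC2 in both letters, against 35.8% of all genes; the test called 0 of 85 (30 at an unadjusted p under 0.05; DESeq2 and the blocked fit called 0), where 0.0125% of all genes passed, with a median log2 fold change of 0.92. Between aNSC and qNSC2 it called 0 of 85 (69 at an unadjusted p under 0.05), where 0.05% of all genes passed the adjusted cutoff, with a median of 1.48. DESeq2 called 38 members and the blocked fit 1, Rps2 (1.90, SE 0.26, adjusted p 0.0203). Shares of all genes are not given for these counts or for the unadjusted one. Rps2 had 3205 CPM in aNSC of pM and 4373 of pJ, against 966.7 and 788.3 CPM in qNSC2. These fits have 6 residual degrees of freedom, and leaving out a letter leaves none.

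Regions and the last step differed less. Striatal astrocytes were below vSVZ astrocytes, at 0.815 times the share in pM and 0.743 times in pJ; 65 of 84 members were lower in both letters, against 27.6% of all genes, yet 0 of 85 passed (1 at an unadjusted p under 0.05; DESeq2 called 0), and 0 of all genes passed. Between neuroblasts and TAP 0 of 85 passed (3 at an unadjusted p under 0.05; DESeq2 called 2), where 4.02% of all genes passed, with a median of -0.05. The ribosome biogenesis list had a median of -1.03 in that comparison, with Heatr1 (-9.45, adjusted p 0.0381) and Nop58 (-2.48, adjusted p 0.0487) called lower of 30 in edgeR's fit, so its median lay below that of the ribosomal proteins. In the reporter line (pL), cortical astrocytes had a share of 0.922% and striatal astrocytes 0.853%; 1 of 81 members was at least 2-fold higher in cortex and 1 at least 2-fold lower, where 8.15% of all genes were at least 2-fold higher. With 1 letter this has no test.

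After ischemia, ribosomal protein genes were higher in the GLAST sorts at 2 d than in naive mice, in both regions and both genotypes, and closer to naive at 21 d. The vSVZ share was 2.90% in naive TiCY (pM), 7.51% at 2 d (pI) and 3.69% at 21 d (pH); in KO (pJ) it was 6.58% at 2 d, against 2.70% naive. The striatal share was 1.09% in naive TiCY, 3.14% at 2 d and 1.80% at 21 d; in KO it was 2.13% at 2 d, against 0.807% naive. Both 2 d values lie above both naive values in each region, and the 21 d value lies between them. In TiCY mice the time and the letter cannot be told apart, since each time is 1 letter; KO mice have both times in pJ, but the naive ones do not carry TiCY in their label.

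In the vSVZ the test (edgeR, genotype and time as terms, 5 sums) called 55 of 85 members higher at 2 d than naive and 0 lower, 30 of the 60S and 25 of the 40S subunit, where 4.93% of all genes were called higher. The median log2 fold change was 1.26, beside 0.08 over all genes. Rps9, a 40S protein at the mRNA entry site, had 3050 CPM in pI and 2028 in pJ at 2 d, against 559.9 in pM and 560.7 in pJ naive. Fau, a ubiquitin-like protein fused to eS30, had 1270 and 871.6 CPM at 2 d, against 323.3 and 220.5 CPM naive. For both genes the 2 d and naive values do not overlap. The log2 fold changes were 2.08 (SE 0.42, adjusted p 3.86e-05) for Rps9, 1.91 (SE 0.41, adjusted p 1.18e-04) for Fau, 2.02 for Rps7 and 2.01 for Rps26. The fit has 1 residual degree of freedom and takes its spread from the trend over genes; without pH, whose sum enters it, 35 members were called. At 21 d against the same naive sums 0 members rose and 3 fell, Rpl36al (-2.28, SE 0.54, adjusted p 0.0102), Rpl24 (-2.10, SE 0.54, adjusted p 0.0302) and Rpl22l1 (-2.40, SE 0.64, adjusted p 0.0428), where 0.257% of all genes were called lower; the first 2 are also among the members apart between letters, given below, and time and letter cannot be told apart here.

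In the striatum 0 of 85 members passed at 2 d (41 at an unadjusted p under 0.05; DESeq2 called 6), where 2.3% of all genes passed, with a median log2 fold change of 1.37, beside 0.36 over all genes, and 81 members above 0. Rpsa had 968.6 CPM in pI and 341.5 in pJ at 2 d, against 128 in pM and 95.2 in pJ naive (2.27, SE 0.75, adjusted p 0.0888). The 2 d values lie above the naive ones and differ between the genotypes by more than the naive pair. At 21 d 0 of 85 passed (3 at an unadjusted p under 0.05; DESeq2 called 0), where 0.299% of all genes passed, with a median of 0.42. Rps27rt stood highest there at 3.54, with an adjusted p of 1.00.

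The mix of cells in these sorts moved along. In the vSVZ the summed quiescent NSC and astrocyte markers were 10270 CPM (pI) and 17480 CPM (pJ) at 2 d, against 34860 (pM) and 32860 (pJ) naive; the activated NSC and TAP markers were 5520 and 6242 CPM, against 2180 and 1724; and the neuroblast markers 3837 and 2253 CPM, against 599 and 529. In the striatum the quiescent NSC and astrocyte markers were 14780 (pI) and 29640 CPM (pJ) at 2 d, against 44530 (pM) and 42120 (pJ) naive; the activated NSC and TAP markers 1086 and 1650 CPM, against 325 and 229; and the neuroblast markers 331 and 545 CPM, against 79.2 and 76.3. In the striatal fit 3 of 9 activated NSC and TAP markers and 5 of 8 neuroblast markers rose, where 2.3% of all genes passed in either direction. Top2a had 206.6 CPM in pI and 98.21 in pJ at 2 d, against 5.34 in pM and 0.228 in pJ naive, and Stmn2 120.6 and 148.6 CPM, against 0.249 and 0.228. The striatal endothelial markers summed to 99.2 CPM in pI and 7.08 in pJ at 2 d, against 4.79 and 0.913 naive. The part of these markers in the ribosomal protein values was not tested. In a sum, more cells of a ribosome-rich type and more ribosomal protein mRNA per cell cannot be told apart. Per cell, the median share in the vSVZ GLAST sort was 1.62% in naive TiCY, 7.38% at 2 d and 2.07% at 21 d, and in KO 6.50% at 2 d, against 1.38% naive. In the striatal sort it was 1.04% in naive TiCY, 2.15% at 2 d and 1.23% at 21 d, and in KO 1.21% at 2 d, against 0.822% naive. Striatal cells of pI ranged from 0.0288% to 15%. The 2 d KO striatal cells carry KO1 or KO2 in their titles, with shares of 2.52% and 1.60%; the labels do not explain these tags.

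**Figure D3:**
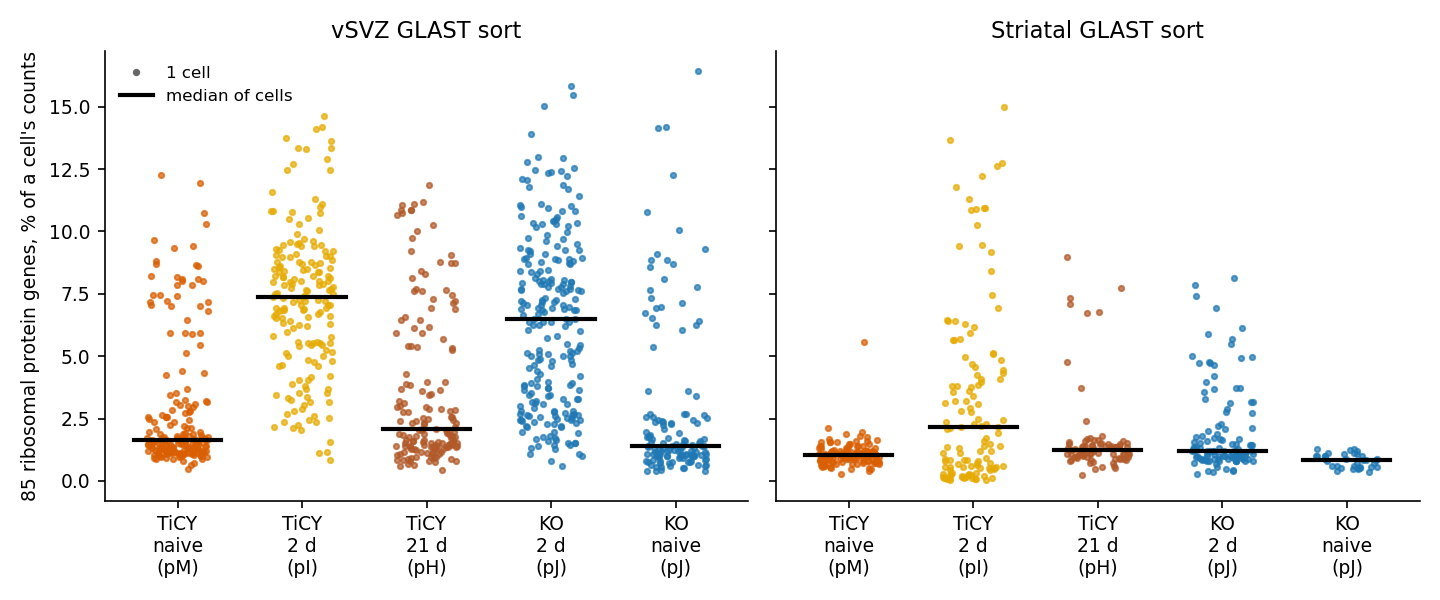
Share of each cell's counts held by the 85 ribosomal protein genes (percent) in the vSVZ and striatal GLAST sorts, 1 point a cell, black lines at the median, coloured by letter. In the vSVZ most cells at 2 d lie above the main cloud of naive cells (medians 7.38% in TiCY and 6.50% in KO, against 1.62% and 1.38% naive); in the striatum the 2 d cells spread from near 0 to 15%.

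Within labelled types the 2 d value stood furthest above the naive one in vSVZ astrocytes and qNSC2. In KO mice, where types are labelled at both times in 1 letter, the share in vSVZ astrocytes was 2.59% at 2 d, against 1.09% naive, and in qNSC2 4.498% at 2 d, against 2.24% naive, ratios of 2.39 and 2.01. These sums hold 36 and 79 cells of vSVZ astrocytes and 67 and 31 cells of qNSC2, with 2 d first. Those of striatal astrocytes hold 82 and 35 cells. The naive sums of the other types are small, with 24 and 7 cells of aNSC, 21 and 9 of TAP and 76 and 8 of neuroblasts. In striatal astrocytes the share was 1.17%, against 0.807% (1.45). In aNSC it was 11.3%, against 10.3% (1.11), in TAP 8.55%, against 8.50% (1.01), and in neuroblasts 7.99%, against 7.69% (1.04). Whether these ratios differ between types was not tested, as each rests on 1 letter. Among members over 20 CPM on average (log2 of CPM + 5), 50 of 83 were at least 2-fold higher at 2 d in vSVZ astrocytes, where 16% of all genes were, with a median log2 ratio of 1.15. In qNSC2 it was 35 of 83 (15% of all genes; median 0.93) and in striatal astrocytes 18 of 83 (15.5%; 0.43). In aNSC it was 1 of 83 (19.3%; 0.13), in TAP 0 of 83 (15.1%; 0.02) and in neuroblasts 4 of 83 (25.8%; 0.06). In the first 2 types the members lie far above the background share. In the dividing types and neuroblasts they lie below it. That share covers all genes over 20 CPM, and genes of like level were not compared, so the lower values are not read as a trait of the members.

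**Figure D4:**
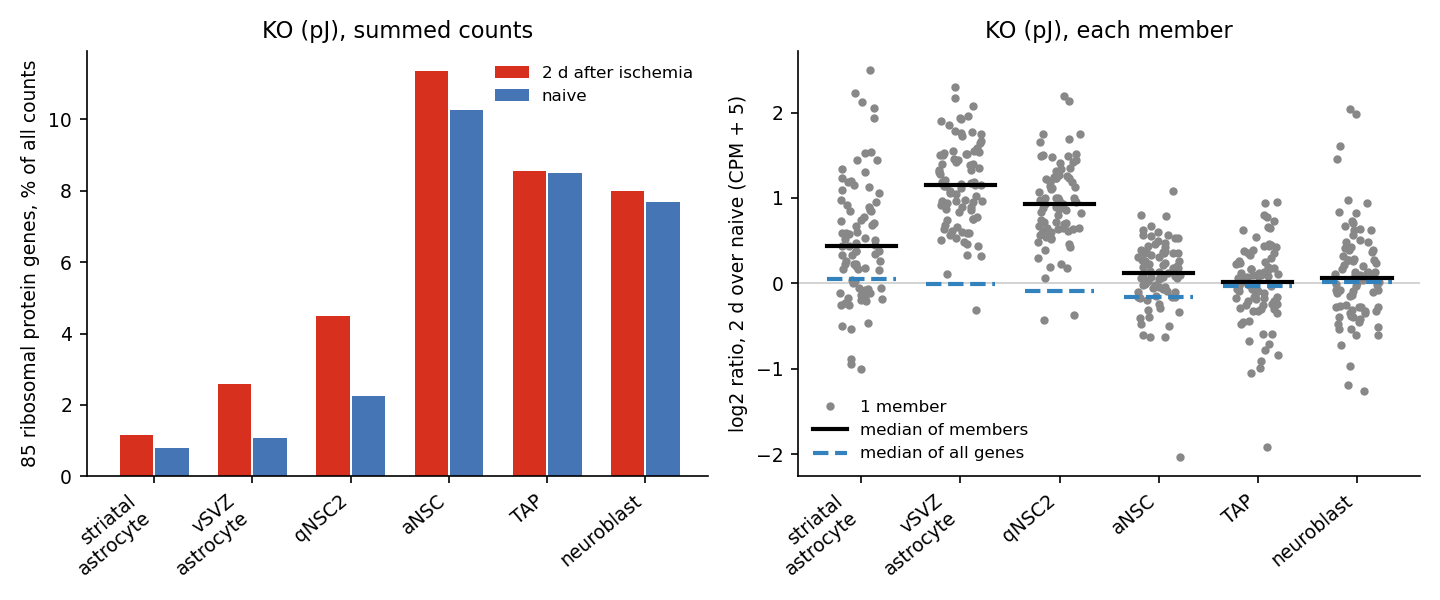
KO mice (pJ), 2 d after ischemia beside naive: left, the share of all counts held by the 85 ribosomal protein genes in summed cells of each type (percent); right, the log2 ratio of each member over 20 CPM, with the members' median (black) and that of all genes (dashed). vSVZ astrocytes (2.59% against 1.09%) and qNSC2 (4.498% against 2.24%) stand higher at 2 d, while TAP (8.55% against 8.50%) and neuroblasts (7.99% against 7.69%) are nearly level. The naive TAP and neuroblast sums hold 9 and 8 cells.

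Single members show the same split. Rps2, a core 40S protein, had 1106 CPM at 2 d, against 329.9 naive, in vSVZ astrocytes and 2210, against 788.3, in qNSC2, but 3569, against 3650, in TAP. Rplp0 had 300.2, against 132.6, in vSVZ astrocytes and 1041, against 405.7, in qNSC2, but 1828, against 2160, in TAP. Fau was higher in all of these, with 1236 CPM at 2 d, against 635.9 naive, in TAP. Rpl22l1 stood at 34.63 CPM at 2 d, against 44.22 naive, in vSVZ astrocytes, at 70.31, against 303.4, in aNSC and at 51.56, against 208.5, in TAP. It was therefore lower at 2 d in each of these types while most members were level or higher.

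Markers of other cell types were measured in the same sums. In vSVZ astrocytes the activated NSC and TAP markers summed to 188 CPM at 2 d, against 261 naive, the neuroblast markers to 6.33 CPM, against 20.4, with 4 and 6 of 8 at 0, and the quiescent NSC and astrocyte markers to 41330 CPM, against 42560. The oligodendrocyte markers there summed to 144 CPM at 2 d, against 60.7 naive, and the oligodendrocyte precursor markers to 48.3, against 16.2, with Pdgfra at 0 in both. In qNSC2 the activated NSC and TAP markers were 978 CPM, against 783, the neuroblast markers 61, against 24, the microglia markers 47, against 19, and the oligodendrocyte precursor markers 62.5, against 6.1, of which Olig1 made up 46.65, against 0, and Pdgfra 0 in both. The part of these markers in the difference was not tested in either type. Among other genes of translation in KO vSVZ astrocytes, Eef1a1 had 362.4 CPM at 2 d, against 125.9 naive, and Eef1b2 238.9, against 107.1, while Npm1 had 34.27, against 74.23. Vim, a reactive astrocyte gene that the oligopyrimidine list also holds, had 584.2 CPM at 2 d, against 34.16 naive. The growth control list had a median log2 ratio of -0.48 there, the biogenesis list 0.63 and the translation factor list 0.60. Of 62 mitochondrial ribosomal protein genes over 20 CPM, 56 were above 0 and 21 at least 2-fold higher, with a median of 0.73. Over all genes 16% were at least 2-fold higher in this comparison.

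Neurogenic striatal astrocytes, a label given only after ischemia, stood far above other striatal astrocytes. At 2 d in KO mice their share was 4.61% (27 cells), against 1.17% in striatal astrocytes (82 cells), and 78 of 83 members were at least 2-fold higher, where 22.8% of all genes were; the median log2 ratio was 1.98. Rplp0 had 688.4 CPM, against 99.74, Rpsa 799.2, against 163, and Rack1 341, against 90.55. These cells also carried the activated NSC and TAP markers at 5686 CPM, against 330, and neuroblast markers at 2034 CPM, against 51, and the part of these cells was not tested. In TiCY mice at 2 d (pI) the share was 11.6% in 6 neurogenic striatal astrocytes, 10.5% in 5 qNSC2 and 6.95% in 7 reactive astrocytes; reactive astrocytes of KO mice had 4.14% over 9 cells.

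Letters pI and pH differed from pM and pJ in which members made up the counts. Over both GLAST sorts, 11 members had a lower and 8 a higher part of the member counts in every pI and pH sum than in any pM or pJ sum, and 66 overlapped. A part of the member counts has no counterpart over all genes, so no background share stands beside these numbers. By CPM, which also moves with time, 2 of 84 members did not overlap, where 3.18% of all genes did not, so in CPM the members were near the background. Rpl36al made up 0.101% to 0.129% in pI and pH, against 0.913% to 1.46% in pM and pJ, and Rpl24 0.0666% to 0.121%, against 0.364% to 1.27%. Rps27rt went the other way, with 0.164% to 0.260%, against 0.00848% to 0.0321%. KO cells at 2 d (pJ) lay with the naive ones for all 3, but choosing members apart from every pM and pJ sum fixed this in advance. As pI and pH are also the only mice after ischemia without the receptor KO, letter and condition cannot be told apart. Rpl36al, Rpl24, Rps10 and Rpl13a, which overlap another gene on the same strand, and Rpl35 and Rps27rt were apart by over 3-fold. Without these 6 members the vSVZ count at 2 d was 54 of 79 and that at 21 d was 1. Rps27rt headed the calls at 2 d in the vSVZ (2.69, SE 0.53, edgeR adjusted p 2.06e-05), with 194.9 CPM in pI and 7.5 in pJ at 2 d, against 9.3 in pM and 3.6 in pJ naive, so that call rests on pI.

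**Figure D5:**
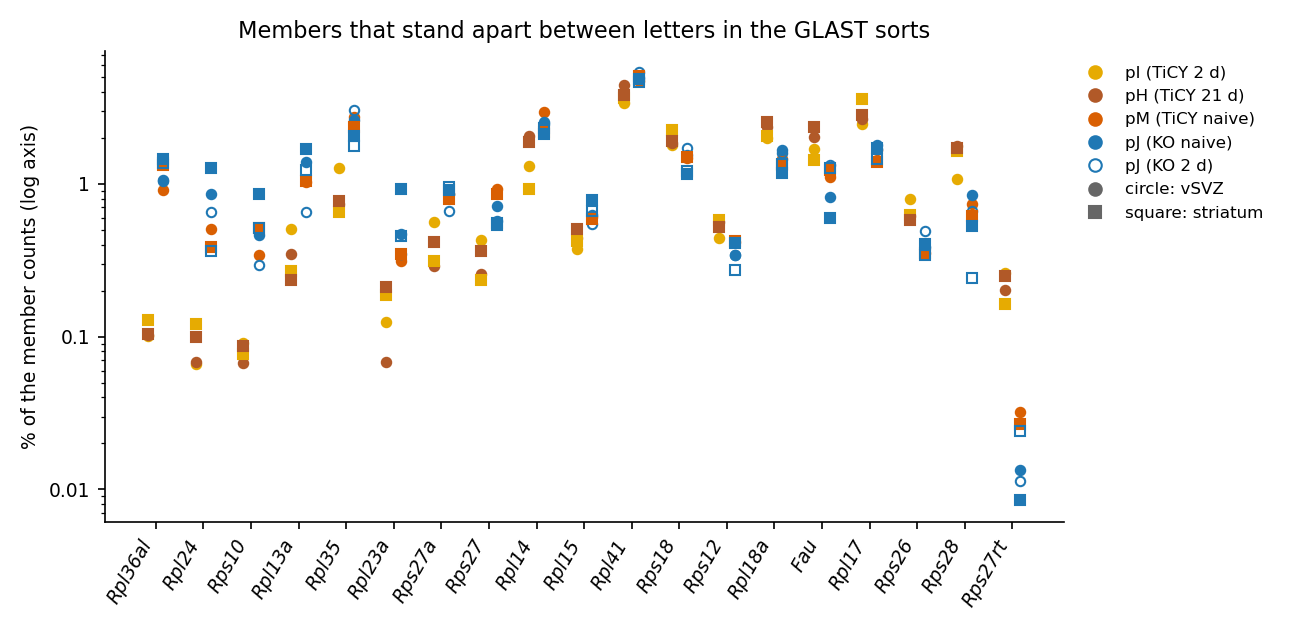
Part of all ribosomal protein counts (percent, log axis) held by each of the 19 members that stand apart between letters pI and pH (left of each tick) and pM and pJ (right), in the vSVZ (circles) and striatal (squares) GLAST sorts; open symbols are KO at 2 d. Rpl36al lies at 0.101% to 0.129% in pI and pH, against 0.913% to 1.46% in pM and pJ, and Rps27rt at 0.164% to 0.260%, against 0.00848% to 0.0321%.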

How the data were processed

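RNA of single cells was measured by Smart-seq3 on total RNA. The authors deposited a matrix of read counts per cell and Ensembl gene; STAR, featureCounts and the builds GRCm38 and mm10 are named in the submitters' processing notes, and the sources used here give no annotation, strand setting or rule for reads that match several places. Of 2584 cells in the matrix, 603 match no labelled cell and were not used. Gene names, positions and overlaps came from GENCODE annotation of the same build, and promoters from RefSeq (GRCm38.p6).

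Counts were summed per type or sort and letter (at least 3 cells) and tested with edgeR 4.0.16 (R 4.3.3; TMM scaling, low counts filtered, quasi-likelihood test, Benjamini-Hochberg adjustment over all genes at 0.05) in 5 fits: WT types (22 sums, 14915 genes), WT sorts (12 sums, 14348 genes), naive TiCY and KO types (12 sums, 16011 genes) and the vSVZ and striatal GLAST sorts (5 sums each, with genotype and time). Comparisons that share a group, such as 2 d and 21 d against the same naive sums, are not independent. Sums of the same letter deviated together in the WT fits, with correlations of 0.139 to 0.506 over the 4 letters that hold qNSC2 and qNSC1 (different letters had a median of -0.0857), so a fit blocked by letter is given beside the unblocked one where it changes the calls. Where 1 letter holds a comparison, values are given without a test. DESeq2 1.42.0, limma 3.58.1, other scalings, no filter and leaving out letters were the alternatives. The scripts were tested on simulated counts.

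Members named with values are the 5 called with the smallest adjusted p (or, under 3 calls, the 3 largest changes of 1 sign in every letter) and a list of named members; further ones that stood apart were chosen after their values were seen, and a few genes that the rule names are not reported here. The members and gene lists were chosen with earlier results of these data known.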

Additional observations from a re-analysis of the deposited data

Results flagged for a closer look

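Letter pD stood apart from the other WT letters. Over 75 groups of 4 or 5 letters checked, 15 had 1 value far from the rest, and all 15 were the pD value, the highest; chance alone gives about 1 in 20 groups, but most of these groups are members that vary together in the same sums, so that they are not independent. In qNSC1, Rplp0 had 352.8 CPM in pD (37.1 to 79.7 in the others), Rplp2 535.4 (18.9 to 79.7), Rpsa 627.8 (64.8 to 136.4) and Rpl41 1654 (57.1 to 508.9). In qNSC2, the ribosomal protein share was 4.93% in pD (0.525% to 1.08% in the others). There Fau had 580.9 CPM (49.9 to 129.4), Rplp1 1021 (54.5 to 137), Rplp2 529.8 (26.3 to 95.4), Rpsa 1378 (296.1 to 322), Rps2 992.6 (46 to 201.1) and Rpl41 2572 (78.9 to 172.7). Also in qNSC2, Rps27l had 181.9 CPM (0 to 30.03), Rps27rt 84.9 (3.34 to 13.4), Rpl36a 395.1 (23.4 to 65.2) and Rpl36al 337.7 (15.8 to 39.5).

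Some members had log2 ratios of 2 d over naive with opposite signs in the 2 genotypes; these differences were not tested, and some values lie near 0. Rpl36al is also among the members apart between letters pI and pH and letters pM and pJ. In the vSVZ, Rpl36al had 1.25 in KO and -1.74 in TiCY mice, and in the striatum 1.26 in KO and -1.72 in TiCY mice. In the striatum, Rps27 had 1.34 in KO and -0.32 in TiCY mice, Rpl7l1 1.28 in KO and -0.08 in TiCY mice, and Rpl22l1 -0.06 in KO and 0.34 in TiCY mice.

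Columns of pseudogenes named after a member were outside all comparisons and held counts. Per 100 member counts they held 2.11 to 12.22 over 29 sorts, with a median of 4.62.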

How the results depend on the processing

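Letters pair the samples, and the paired fit, with the replicate letter as a block, called more members in several comparisons. They were 2 for qNSC2 over qNSC1, 50 for aNSC over qNSC2, 78 for TAP over qNSC1, 46 for oligodendrocytes over qNSC1 and 58 for the NB over the NSC sort, and 1 for naive aNSC over qNSC2; the unblocked counts were 0, 0, 25, 0, 0 and 0. The block changed no other count. With DESeq2 they were 15 for WT aNSC over qNSC2, 54 for TAP over qNSC1, 1 for the NB sort, 38 for naive aNSC over qNSC2, 2 for naive neuroblasts over TAP, 64 for the vSVZ at 2 d (63 higher and 1 lower; 55 and 0 in edgeR), 1 for the vSVZ at 21 d (3 in edgeR) and 6 for the striatum at 2 d (0 in edgeR). With each cell weighted equally (limma) they were 11 for WT aNSC over qNSC2, 63 for TAP over qNSC1, 9 for naive aNSC over qNSC2 and 1 for naive neuroblasts over TAP. Without a filter they were 23 for WT TAP over qNSC1, 48 for the vSVZ at 2 d, and 11, 1 and 1 for naive aNSC over qNSC2, naive neuroblasts over TAP and the vSVZ at 21 d, which also had 1 when scaled without the members and, chosen after seeing the data, 1 without the 6 members apart in pI and pH. RLE scaling called 1 in the striatum at 2 d; it moved the median of all genes by 0.11 for WT qNSC2 over qNSC1. In letters pA, pB and pE alone the counts were 1 for qNSC2 over qNSC1, 4 for aNSC over qNSC2, 59 for TAP over qNSC1 and 2 for oligodendrocytes over qNSC1; in pC and pD alone TAP over qNSC1 had 0. Where such a subset leaves 1 sample of a type, it is assumed to vary like the other types. Leaving out 1 letter gave 0 to 4 for WT aNSC over qNSC2 (4 without pD), 1 to 46 for TAP over qNSC1, 0 to 1 for oligodendrocytes, 0 to 2 for the NB sort and 35 in the vSVZ at 2 d without pH. Apart from the blocked WT fits, whose shares are given above, counts under these alternatives stand without the share of all genes called. They show only how far the calls of members depend on the setting.

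Among named members, 501 values kept their direction and call, 43 passed the test where the reported value did not, 17 no longer passed and 2 turned in sign. Rpl12 in neuroblasts over TAP had 0.41 with the block. In oligodendrocytes over qNSC1, Rps3 had -0.69 to 1.497 when a letter was left out (-0.69 without pC). The cause was not tested. Ratios of the share moved little with the denominator or without overlapping members and more with the median over cells: aNSC over qNSC2 in pD had 2.58 without overlapping members and 2.77 by cells (reported 2.60), KO vSVZ astrocytes at 2 d over naive 1.88 by cells (2.39), KO qNSC2 1.98 by the common denominator, 2.04 without overlapping members and 1.62 by cells (2.01), and the TiCY vSVZ sort 2.64, 2.61 and 4.55 (2.59).

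Leaving out a letter in the naive fit leaves no residual degrees of freedom, and the 21 d comparisons need pH, so neither was run. In the GLAST sorts no paired analysis was possible because only pJ holds 2 groups. Low members such as Rpl3l and Rps27rt rest on few counts. Letters differ in depth, and its part in the shares was not tested.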
